A study of Mus musculus with 4 samples.

Results

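The transcripts described here encode actin-related and actin-capping proteins of spermatids, the haploid germ cells that become sperm, together with the actin, capping, cofilin and profilin genes that nearly all cells use. The group was defined by 10 gene names, and its members were all probe sets whose platform annotation names exactly 1 of them. That gave 9 of the 10 genes, among 8252 named on the array, with 18 of its 12488 probe sets; no probe set was annotated to Actl7a alone, so Actl7a has no value here. Of the 18, 12 were ordinary probe sets and all 12 passed the signal filter described below, while 6 were manufacturer's control probe sets for beta-actin. RNA came from whole testis of male C57BL/6J mice aged 16 weeks, with 2 arrays of Tslc1+/+ mice and 2 of Tslc1-/- mice, which carry a targeted loss of the adhesion molecule gene now named Cadm1. The labels give neither the deleted part of that gene nor the number of mice behind each array; p-values therefore reflect variation between arrays and may cover technical variation alone.

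Actin exists as monomers and as filaments that grow mainly at their barbed ends. Capping protein, a heterodimer of an alpha and a beta subunit, binds barbed ends and stops their growth; Capza1 and Capza2 encode the alpha subunits of most cells, Capzb encodes the beta subunit, and Capza3 encodes an alpha subunit found in male germ cells. Actl7a and Actl7b encode actin-like proteins made in spermatids, where the cytoskeleton between acrosome and nucleus is built while the head is shaped. Mice with a mutation in Capza3 have been described with abnormal sperm and male infertility. Cofilin, from Cfl1, severs and disassembles filaments, and profilin, from Pfn1, feeds monomers to growing ends.

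Values are signals of the MAS5 algorithm on a linear scale, with each array scaled to the same mean brightness. Signals of different probe sets depend on their probes and do not rank the RNA of different genes. Changes are log2 values of Tslc1-/- minus Tslc1+/+ after adding 50 to each signal, and were tested with limma over 7975 probe sets with a mean signal of at least 200, with Benjamini-Hochberg adjustment and a threshold of 0.05. The targeted gene was lower on its tested probe sets, both of which carry a suffix for possible cross-hybridisation. The first Cadm1 probe set gave 3960 and 3925 in Tslc1+/+ against 443.5 and 444.9 in Tslc1-/-. Its change was -3.01 (limma, adjusted p = 2.31e-05), and the second changed by -2.36 (limma, adjusted p = 1.83e-04). Of the marker genes tested for testis cell types, 6 of 10 were called lower for elongating spermatids and 1 of 5 for spermatocytes. Of 7 peritubular myoid markers 1, Actg2, was called lower. The summed signal of the other 6 overlapped between genotypes, so the Actg2 call does not stand for the myoid list. Among all 5992 genes, each on its brightest probe set, 0.968% were called lower. The spermatocyte call was Pgk2, at -0.78 (limma, adjusted p = 0.00495). That list had 2 negative and 3 positive changes and a median of 0.005, so its call does not stand for the list. No gene was called among 8 for Sertoli cells, 6 for Leydig cells, 4 for macrophages and blood, 3 for endothelium and 1 for epididymis. The brightest gene of some of these lists still lay apart by genotype: Pecam1, of endothelium, had a change of -1.92, Cyp17a1, of Leydig cells, one of -0.58 and Hba-a1, of blood, one of 0.75 (limma, adjusted p = 0.0694, 0.127 and 0.144). Such separation is common, as 40.0% of all tested probe sets did not overlap by genotype. The summed signals of the lists of Pecam1, Cyp17a1 and Hba-a1 did not overlap either. These sums include the 3 genes themselves and so partly restate them. The sums were lower in Tslc1-/- for endothelium (1846 and 1533 against 833 and 1014) and Leydig cells (7270 and 7409 against 5683 and 6369). For macrophages and blood they were higher (2679 and 2467 against 3758 and 2897). Within each list the signs of change were mixed. Endothelium had 2 negative and 1 positive, and macrophages and blood had 1 negative and 3 positive. Leydig cells had 3 negative and 3 positive, with a median change of 0.08.

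Promoter sequences were looked up in RefSeq (GRCm38.p6), where 8 of the 10 genes matched, all but Capza3 and Actb. The 250 bases before the annotated start are shown for the neighbouring spermatid genes Actl7a and Actl7b, which have no other protein-coding gene between them on chromosome 4, and, as the comparison with genes active in most cells, for Capza1 and Actg1. Each runs 5′ to 3′ toward the gene's start; capitals mark the motifs searched on both strands. These were the cyclic AMP response element TGACGTCA, its first part TGACG, the related TGACATCA, the TATA box as TATAAA, the CCAAT box, the GC box as GGGCGG and the CArG box, which serum response factor binds.
Actl7a (chr4:56743172-56743421, plus strand): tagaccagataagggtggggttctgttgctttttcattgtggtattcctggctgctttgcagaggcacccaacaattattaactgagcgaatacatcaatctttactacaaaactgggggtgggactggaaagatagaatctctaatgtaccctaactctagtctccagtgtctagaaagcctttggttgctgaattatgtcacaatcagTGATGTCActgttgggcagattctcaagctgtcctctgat
Actl7b (chr4:56741426-56741675, minus strand): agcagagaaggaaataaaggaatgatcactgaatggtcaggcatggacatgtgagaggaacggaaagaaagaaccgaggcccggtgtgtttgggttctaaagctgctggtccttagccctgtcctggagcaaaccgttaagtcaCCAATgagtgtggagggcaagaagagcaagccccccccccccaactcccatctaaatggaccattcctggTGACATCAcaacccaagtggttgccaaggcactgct
Capza1 (chr3:104864506-104864755, minus strand): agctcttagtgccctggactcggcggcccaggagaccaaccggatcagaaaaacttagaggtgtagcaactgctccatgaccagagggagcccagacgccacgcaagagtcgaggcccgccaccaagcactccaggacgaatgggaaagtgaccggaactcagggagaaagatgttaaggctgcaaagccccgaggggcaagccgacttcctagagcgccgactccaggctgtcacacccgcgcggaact
Actg1 (chr11:120348496-120348745, minus strand): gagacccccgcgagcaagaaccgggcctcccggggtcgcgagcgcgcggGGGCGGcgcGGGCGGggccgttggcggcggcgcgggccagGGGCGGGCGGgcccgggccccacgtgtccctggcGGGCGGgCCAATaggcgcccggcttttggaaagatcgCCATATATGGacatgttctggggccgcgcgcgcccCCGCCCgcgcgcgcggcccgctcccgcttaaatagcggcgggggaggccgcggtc

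The windows of the spermatid genes were poor in CpG: Actl7a held 1 CpG at a GC content of 43.2% and Actl7b held 4 at 52.4%, against 16 at 60.4% for Capza1 and 43 at 79.2% for Actg1. The median over all 32851 promoter windows was 6 CpG and a GC content of 52.4%. Capza2, Capzb, Cfl1 and Pfn1 held 28, 11, 16 and 12 CpG, at a GC content of 70.4%, 62.4%, 52% and 54.4%. In GC content Cfl1 thus lay just below Actl7b. The 8 letters TGACATCA occurred in both Actl7 windows, from -36 to -29 before the Actl7b start and, on the other strand, from -40 to -33 before the Actl7a start. They occurred in 2.93% of all windows and in none of the 6 ubiquitous members' windows; this motif was added after the Actl7a and Actl7b sequences had been read. The letters TGACGTCA were in none of the 8 windows and in 1.55% of all. Actg1 alone of the 8 had a CArG box, found in 1.47% of all windows, and it had 6 matches to GGGCGG, 2 of which overlap (32.7% of all windows hold at least 1). These matches describe letters only.

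**Figure D1:**
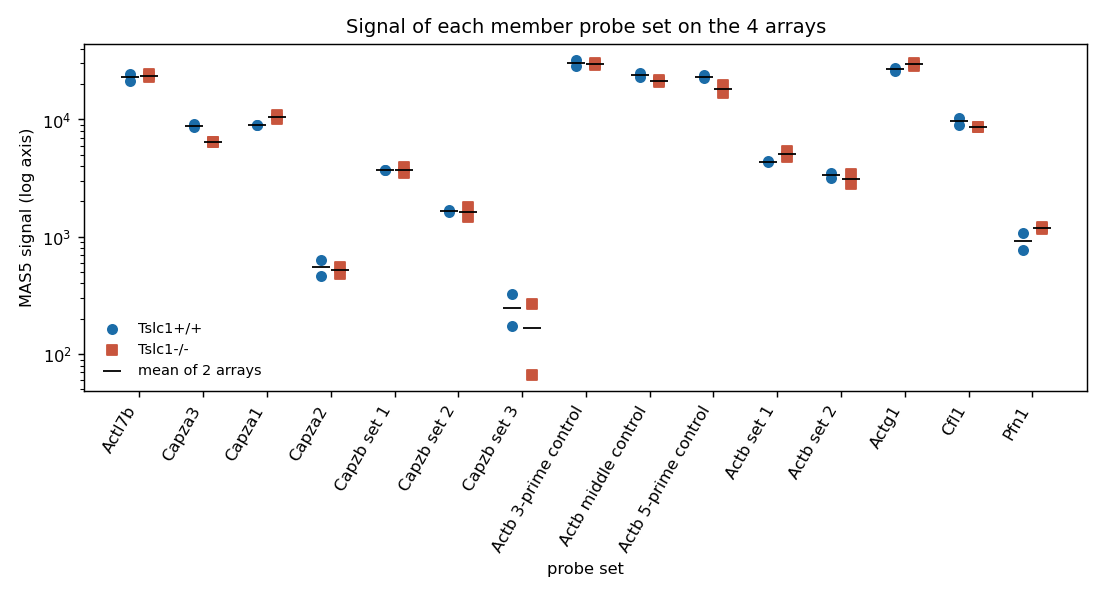
MAS5 signal (log axis) of the 12 ordinary member probe sets and the 3 beta-actin control probe sets that read the transcript, with blue circles for the 2 Tslc1+/+ arrays, red squares for the 2 Tslc1-/- arrays and a black line for each mean. The Capza3 arrays separate by genotype, from 8555 to 9142 in Tslc1+/+ and from 6375 to 6450 in Tslc1-/-, while those of Actl7b overlap.

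Comparison of the genotypes asked whether the spermatid forms and the ubiquitous forms differed in Tslc1-/- testis. None of the 12 tested member probe sets passed (limma, adjusted p under 0.05), and 1, that of Capza3, was under 0.05 before adjustment. Over all tested probe sets 1.08% passed, 0.840% lower and 0.238% higher, and 10.0% were under 0.05 before adjustment. The members' median change was -0.02, with 7 negative and 5 positive, against 0.02 over all tested probe sets, and the median size of change without sign was 0.15 against 0.22. The genotypes did not overlap on 6 of the 12, 2 lower and 4 higher in Tslc1-/-, against 40.0% of all tested probe sets, 18.5% lower and 21.5% higher. The share of members apart by genotype was thus near that of the array as a whole.

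**Figure D2:**
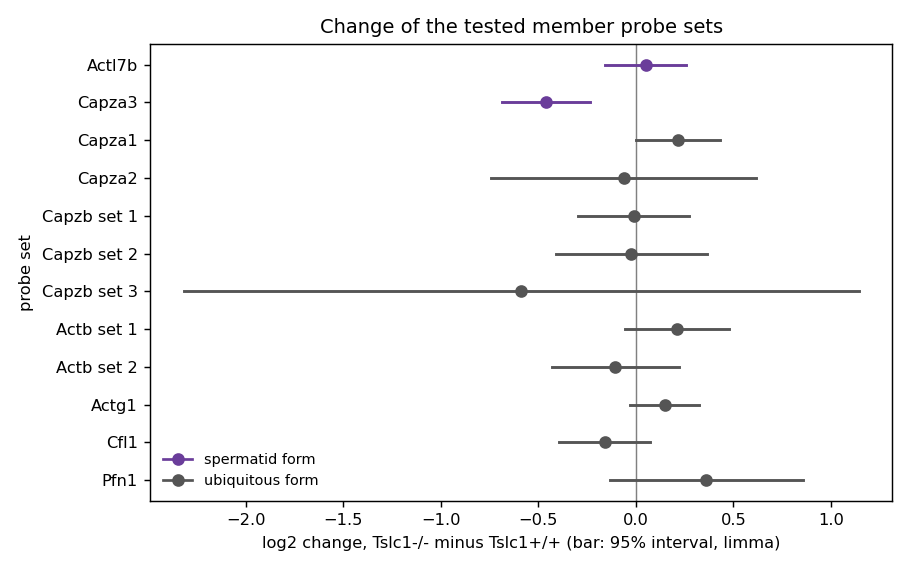
Log2 change, Tslc1-/- minus Tslc1+/+, of the 12 tested member probe sets (points) with limma's 95% interval (bars), spermatid forms in purple and ubiquitous forms in grey. The interval of Capza3, from -0.69 to -0.23, is the only one shown that lies wholly on one side of 0 before any adjustment for the number of tests.

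Capza3 had the smallest p of the members. Its probe set, 102301_at, read 9141.5 and 8555.1 on the Tslc1+/+ arrays, against 6375 and 6449.7 on the Tslc1-/- arrays. Both Tslc1-/- arrays lay below both Tslc1+/+ arrays, and the mean was 27.5% lower, 8848 ± 415 against 6412 ± 52.8 (SD, n = 2). The log2 change was -0.46 with a standard error of 0.10 and a 95% interval from -0.69 to -0.23 (limma, adjusted p = 0.074), which did not pass. Among probe sets with a mean signal of at least 5000, 6.58% were called lower, 0.700% were called higher and 7.42% had a change at or below that of Capza3, so many bright probe sets had a change as low. Over the 6354 probe sets without a suffix for possible cross-hybridisation, where 1.12% were called lower, Capza3 passed (limma, adjusted p = 0.0477). With 1 array left out its change was between -0.51 and -0.41 and it did not pass (limma, adjusted p from 0.21 to 0.33).

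Most elongating spermatid markers had a change of the same sign as Capza3. All 10 genes of that list were tested, 9 with a negative change and 1, Prm2, with a positive one of 0.18; 6 fell, 4 did not pass and the median change was -0.52. Set beside this, 0.968% of all genes and 6.58% of probe sets with a mean signal of at least 5000 were called lower. The count fell to 0 without the intensity trend and to 4 without Tslc1+/+ replicate 2 or over all probe sets. The list's summed signal was 581676 and 586022 in Tslc1+/+, against 418694 and 392162 in Tslc1-/-. The brightest of them, Tnp2, which encodes a transition protein of sperm chromatin, had a change of -0.39 (limma, adjusted p = 0.0654). None of the list was at 0, though the Prm2 probe set was dim, with 152.5 to 396.3 over the 4 arrays. The part of spermatid content in the Capza3 change was not tested, and in whole testis fewer cells of a type and less RNA per cell cannot be told apart.

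Among 3050 probe sets with a mean signal of at least 1000, the 5 genes with the profile nearest to Capza3 over the 4 arrays, by Euclidean distance between gene-centred log2 values, were Spns1, Cdc34, Cbl, Atp6v0b and Yars. Their distances ran from 0.0239 to 0.0475. Cdc34, a ubiquitin-conjugating enzyme, read 15442.6 and 14648.4 in Tslc1+/+, against 10937.1 and 11199 in Tslc1-/-, a change of -0.44 (limma, adjusted p = 0.0505). None of the 5 passed.

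Actl7b, the other spermatid gene measured, did not separate the genotypes. It read 21116.9 and 24577.5 in Tslc1+/+, against 24315 and 22889.8 in Tslc1-/-, so both Tslc1-/- values lay between the Tslc1+/+ values. The change was 0.05 with a standard error of 0.09 and a 95% interval from -0.16 to 0.26 (limma, adjusted p = 0.903). The 2 spermatid genes therefore had intervals that did not overlap. The log2 ratio of Capza3 to Actl7b, a comparison added after the data had been seen, was -1.20 and -1.52 in Tslc1+/+, against -1.92 and -1.82 in Tslc1-/-, lower by 0.51 on average. The arrays separated by genotype, but an exact two-sided permutation test of 2 against 2 cannot give a p under 0.333, and it gave 0.333. With quantile normalization the Actl7b change was 0.20 and remained short of the threshold (limma, adjusted p = 0.412).

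The ubiquitous alpha subunit Capza1 was on the opposite side of Capza3. It read 9049.5 and 8966.1 in Tslc1+/+, against 10964.7 and 10011.4 in Tslc1-/-. Both Tslc1-/- arrays were above both Tslc1+/+ arrays, with means of 9008 ± 59.0 and 10488 ± 674 (SD, n = 2), but the change of 0.22 (95% interval -0.00014 to 0.43) did not pass (limma, adjusted p = 0.497). Capza2, the other widely expressed alpha subunit, was dim: it read 460.3 and 635.2 in Tslc1+/+, against 484.5 and 551 in Tslc1-/-. These overlapped, and the change of -0.06 had an interval from -0.74 to 0.62 that leaves the Capza3 change within it.

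Capzb, the beta subunit that pairs with each alpha subunit, had 3 probe sets, none of which separated the genotypes. The brightest read 3682.7 and 3729.6 in Tslc1+/+, against 3468.4 and 3906.5 in Tslc1-/-, a change of -0.01 with an interval from -0.29 to 0.27. The second read 1690.4 and 1635.5 against 1487 and 1796.4, a change of -0.02. Both carry a suffix for possible cross-hybridisation. The third was near the filter, with 172.5 and 324 against 267.4 and 66.3, and its change of -0.59 had an interval from -2.32 to 1.14, too wide to compare with the others.

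The ratio of Capza3 to each other capping subunit was formed within each array, which removes any factor common to that array. Against Capza1 the log2 ratio was 0.01 and -0.07 in Tslc1+/+, against -0.78 and -0.63 in Tslc1-/-, a difference of -0.68. Against Capzb it was 1.30 and 1.19 in Tslc1+/+, against 0.87 and 0.72 in Tslc1-/-, a difference of -0.45. Against Capza2 it was 4.17 and 3.65 in Tslc1+/+, against 3.59 and 3.43 in Tslc1-/-, a difference of -0.40. The genotypes did not overlap on any of these 3 ratios or on that to Actl7b. All of them share the Capza3 values, which did not overlap themselves, so they are not separate observations. The exact permutation p was 0.333 for each of the 4 ratios, also after Benjamini-Hochberg adjustment, which is the smallest that 2 against 2 arrays allow. Only the differences between genotypes can be read, since the absolute level of a ratio depends on the probes. Leaving out Tslc1+/+ replicate 1 made the difference against Capza2 -0.14, and leaving out the other Tslc1+/+ array made it -0.66.

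**Figure D3:**
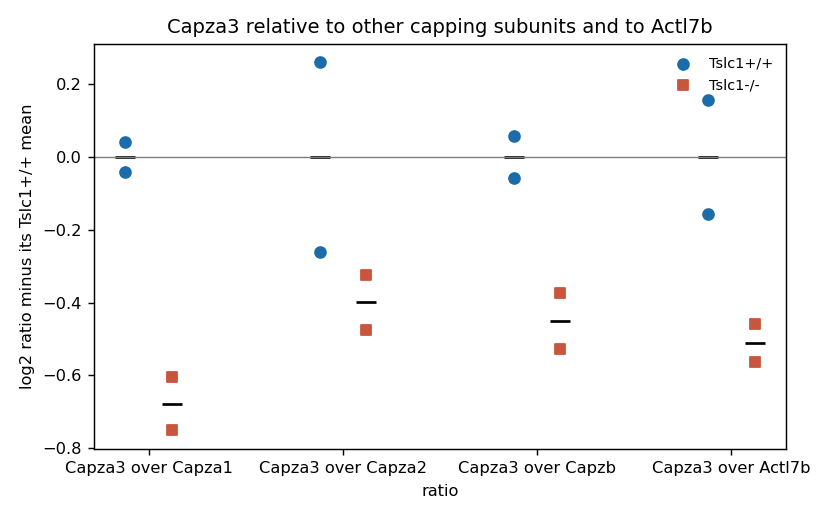
Log2 ratio of Capza3 to Capza1, Capza2, Capzb and Actl7b on each array, minus the Tslc1+/+ mean of that ratio; blue circles are Tslc1+/+ arrays, red squares Tslc1-/- arrays and black lines the means. The Tslc1-/- means lie below the Tslc1+/+ means by 0.68 for Capza1, 0.40 for Capza2, 0.45 for Capzb and 0.51 for Actl7b on the log2 scale.

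The cytoplasmic actins gave no call. Actg1, which encodes gamma-actin, read 25821.9 and 27542.7 in Tslc1+/+, against 28600.1 and 30540.9 in Tslc1-/-. The genotypes did not overlap, the means were 26682 ± 1217 and 29571 ± 1372 (SD, n = 2), and the change of 0.15 had an interval from -0.03 to 0.33 (limma, adjusted p = 0.604). With quantile normalization it was 0.33 (limma, adjusted p = 0.104). Actb, which encodes beta-actin, had ordinary probe sets that differed in sign. The first read 4299.9 and 4464.8 in Tslc1+/+, against 5394.8 and 4790 in Tslc1-/-, a change of 0.21 (limma, adjusted p = 0.621). The second read 3495.1 and 3195 against 3450.9 and 2794.4, a change of -0.10 (limma, adjusted p = 0.864). Actin genes are close in sequence, and each of the 2 has a suffix for possible cross-hybridisation, so their signals are uncertain as measures of Actb alone.

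The Actb control probe sets read the 5′ end, the middle and the 3′ end of the transcript separately. At the 3′ end the signals overlapped, 28493.8 and 32283.1 in Tslc1+/+, against 30544.3 and 29159.3 in Tslc1-/-. At the 5′ end they did not: 23827.3 and 22524.6 in Tslc1+/+ against 19599.8 and 16836 in Tslc1-/-, a mean 21.4% lower. The middle lay between, with a mean 11.4% lower. It did not overlap either, at 24864.4 and 23092.2 in Tslc1+/+ against 21744.5 and 20757.7 in Tslc1-/-. Added to the tested probe sets after the data had been seen, the 3′, middle and 5′ sets had changes of -0.02, -0.17 and -0.35 (limma, adjusted p = 0.963, 0.532 and 0.158), so none passed. The 3 control sets of the opposite strand read from 444.2 to 1336.

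**Figure D4:**
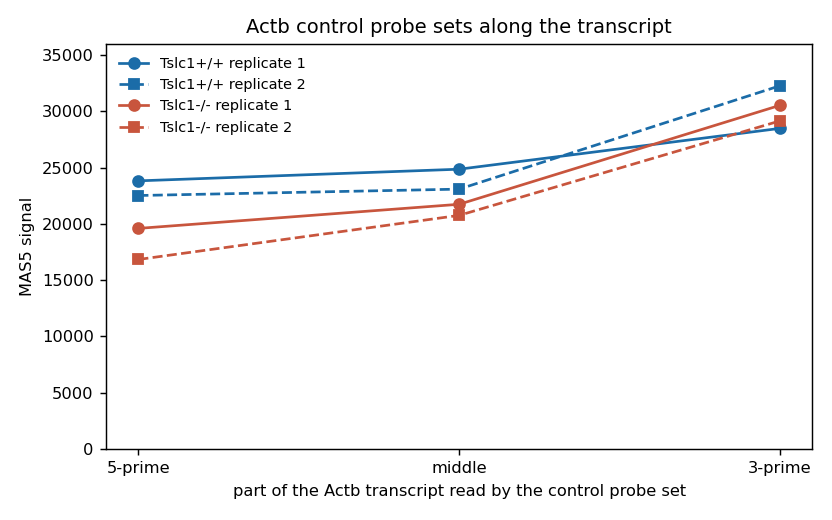
MAS5 signal of the Actb control probe sets at the 5-prime end, middle and 3-prime end of the transcript, with a line for each of the 4 arrays. At the 3-prime end the genotypes overlap. In the middle and at the 5-prime end the Tslc1-/- arrays lie below the Tslc1+/+ arrays. At the 5-prime end they read 19600 and 16836 in Tslc1-/- against 23827 and 22525 in Tslc1+/+.

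The ratio of 3′ to 5′ Actb signal, a customary measure of how complete the labelled RNA is, was 1.20 and 1.43 in Tslc1+/+, against 1.56 and 1.73 in Tslc1-/-. The same ratio for Gapdh went the other way, 1.06 and 1.12 in Tslc1+/+, against 0.953 and 0.925 in Tslc1-/-. The 3 probe sets for 18S ribosomal RNA were higher on both Tslc1-/- arrays, for instance 8196 and 7144 at the 5′ end against 5218 and 5468. Such differences between the genotypes' RNA moved with the Capza3 and Actb 5′ values, and their part in those values was not tested.

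The remodelling proteins did not pass either. Cfl1 read 10312.7 and 8988.6 in Tslc1+/+, against 8614.6 and 8616.6 in Tslc1-/-. The Tslc1-/- arrays lay just below the lower Tslc1+/+ array, and the change of -0.16 had an interval from -0.39 to 0.07 (limma, adjusted p = 0.676). Pfn1 read 1078.4 and 776 in Tslc1+/+, against 1165.3 and 1215.8 in Tslc1-/-. Both Tslc1-/- values were higher, but the Tslc1+/+ arrays differed from each other by more than the upper one differed from either Tslc1-/- array, and the change of 0.36 had an interval from -0.13 to 0.86 (limma, adjusted p = 0.66). Leaving out Tslc1+/+ replicate 1 gave 0.59, and leaving out the other Tslc1+/+ array gave 0.14.

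Of 107 other genes of the actin cytoskeleton or the sperm head, 57 were tested on their brightest probe set. Of these 1, Actg2, was called, which is 1.75% against 1.23% of all 5992 genes tested in this way. The median change of the 57 was -0.08, against 0.02 over all genes. Actg2, the gamma actin of smooth muscle, read 11737.9 and 12935.6 in Tslc1+/+, against 8411.8 and 8103.5 in Tslc1-/-. Its values did not overlap, and it fell by 0.57 ± 0.10 (SE) on the log2 scale (limma, adjusted p = 0.0192). This probe set carries a suffix for possible cross-hybridisation, and leaving out each array in turn ended the call (limma, adjusted p for Actg2 from 0.0907 to 0.183) as did testing all 12422 probe sets (adjusted p = 0.0525). Acta2, the alpha actin of vascular and myoid smooth muscle, had a change of 0.14, and Actc1, the cardiac actin, one of -0.25. The other muscle-type actins and peritubular myoid markers thus gave no second call; of 7 myoid markers Actg2 alone passed, and the summed signal of the other 6 overlapped, at 6165 and 7017 in Tslc1+/+, against 6803 and 6292 in Tslc1-/-.

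Among 3 tested actin-related proteins none passed: Actl6a, a subunit of chromatin remodelling complexes and the brightest, had a change of 0.24 and Actr3, a core subunit of the Arp2/3 complex, one of -0.40 (limma, adjusted p = 0.637 and 0.558). None of 8 genes of the Arp2/3 complex and its activators passed, with a median of 0.01. Arpc2 had a change of 0.01 and Arpc4, another subunit, one of 0.32, which ran from 0.06 to 0.58 with 1 array left out. None of 17 genes for monomer binding, severing and other capping passed, with a median of -0.08. The brightest, Tmsb10, a monomer-binding thymosin, had a change of -0.10 with an interval from -0.26 to 0.07. The smallest p of that list was that of Cap1, a cyclase-associated protein that recycles monomers, which read 1036.5 and 917.6 in Tslc1+/+, against 574.2 and 126.8 in Tslc1-/-, a change of -1.63 (limma, adjusted p = 0.228). The Tslc1-/- arrays differed widely: the change was -2.54 without Tslc1-/- replicate 1 (limma, adjusted p = 0.0334) and -0.72 without Tslc1-/- replicate 2 (adjusted p = 0.503). With a replicate block Cap1 passed (adjusted p = 0.00751).

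None of 25 genes for bundling, crosslinking and membrane linking passed, with a median of -0.17. Tln1, which links integrins to actin, had a change of -0.04, and Tpm4, a tropomyosin, one of -1.13 with Tslc1-/- signals of 133.2 and 513.7 (limma, adjusted p = 0.912 and 0.49). For Tpm4, leaving out Tslc1-/- replicate 1 gave -0.31, and leaving out the other Tslc1-/- array gave -1.94. Of 12 genes of the perinuclear theca and sperm head only Zpbp, an acrosomal zona-binding protein, was tested, with a change of -0.17 (limma, adjusted p = 0.725).

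**Figure D5:**
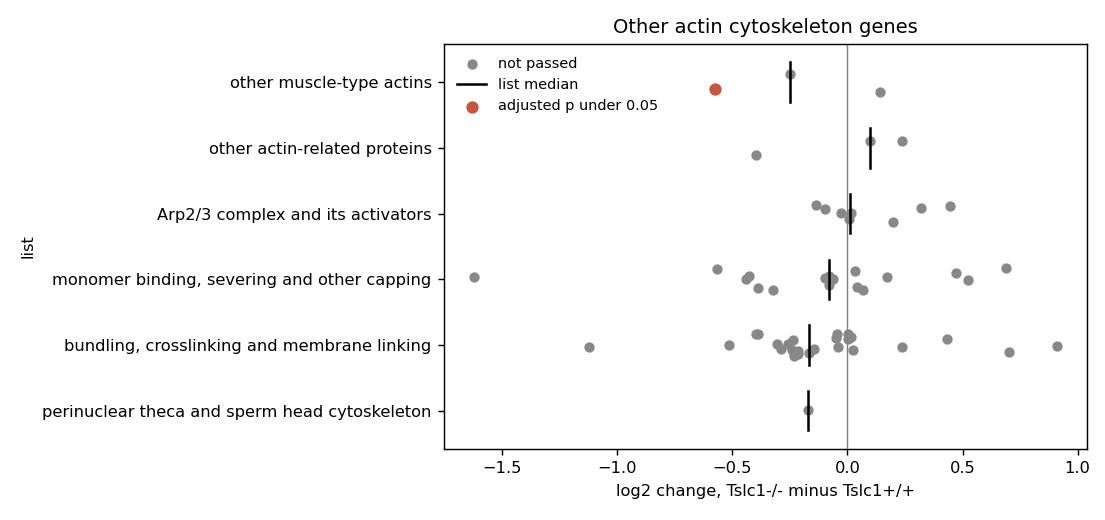
Log2 change, Tslc1-/- minus Tslc1+/+, of 57 other genes of the actin cytoskeleton or the sperm head in 6 lists. Each gene is 1 point on its brightest probe set, with a black line at each list's median and vertical scatter without meaning. Actg2, in red, is the only point that passed the threshold.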

How the data were processed

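The series text among the labels states that the authors labelled 3 micrograms of testis RNA from an oligo(dT) primer, hybridised it to Mouse Genome U74A version 2 arrays, computed signals with Affymetrix Microarray Suite 5.0 (named MAS5 per the submitters' processing notes), then scaled every array to a target of 1000. The deposited values are therefore probe set intensity on a linear scale. Their mean after trimming 2% at each end was 1001 on each array, and the median signal was 361.5 to 378, so a change in total RNA cannot be seen. Priming at the poly(A) tail favours 3′ ends. Detection calls were not used here.

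Names came from the platform's annotation, with symbols updated by Entrez identifier through RefSeq (GRCm38.p6); of 12422 non-control probe sets, 10833 had 1 gene, 396 several and 1193 none, and 10817 matched. limma 3.58.1 in R 4.3.3 (lmFit, eBayes with an intensity trend) was run on log2(signal + 50) without further normalization. A gene in a list was represented by its brightest tested probe set. With 2 arrays a genotype, array number limits precision. Named were all members, each list's called, brightest and smallest-p genes, each marker list's brightest gene, and the genes nearest to Capza3. Acta2, Actc1, Prm2, Pgk2 and Gapdh were named after their values were seen. The members and lists were chosen with earlier results of these data known. Alternatives were other pseudocounts, filters and normalizations, no trend, a replicate block, and each array left out.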

Additional observations from a re-analysis of the deposited data

How the results depend on the processing

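The call count of 86 probe sets became 0 without the intensity trend (limma, 638 at an unadjusted p under 0.05) and 37 to 43 with 1 array left out. Same-numbered arrays did not deviate together over the tested probe sets as a whole (correlation across probe sets of -0.0012). This cannot exclude a pairing that touched only part of the genes. With a replicate block the count was 239, of members 1 and of pathway genes 3. Capza3, at -0.46, then passed (limma, adjusted p = 0.0124). Over probe sets without a cross-hybridisation suffix, 1 member was called, Capza3 at -0.46 (adjusted p = 0.0477), and 0 pathway genes, since Actg2 was not tested there. The pathway count was also 0 over all probe sets and without the trend (limma, 5 and 1 at an unadjusted p under 0.05), and 0 to 1 with 1 array left out. Cadm1 lost its calls without the trend, at -3.01 and -2.36 (limma, adjusted p = 0.143 and 0.275). Both its tested probe sets carry a suffix, so they were not tested over the unsuffixed probe sets. Under each other alternative Cadm1 kept its calls. Capza3 stayed negative under each alternative (adjusted p from 0.0124 to 0.618).

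Of 424 other counts and single-gene changes under an alternative, 377 were classed as unchanged. The 424 leave out the total, member and pathway call counts, Capza3 and Cadm1, all given above. They also leave out the ratios, which all kept their sign. For a single gene, unchanged meant the same direction and the same side of the threshold. A count could be classed so while it shifted, as when 67 probe sets called lower became 48 over all probe sets. Tnp2 passed with quantile normalization, equal array medians, the replicate block, no suffixed probe sets and without Tslc1-/- replicate 1 (limma, adjusted p from 5.24e-04 to 0.049). Other calls gained were those of Pecam1, Cap1, Cyp17a1 and Hba-a1 with the block (limma, adjusted p = 0.00751, 0.00751, 0.00879 and 0.0387), Pecam1 without suffixed probe sets (0.0469) and Cap1 without Tslc1-/- replicate 1 (0.0334). Changes that kept their sign but varied with 1 array left out were those of Cfl1 (-0.26 to -0.06), Actr3 (-0.59 to -0.20) and Zpbp (-0.32 to -0.02). Changes that turned sign were mostly near 0, apart from those of the third Capzb probe set (-0.59) and Adam7 (-0.50), both dim. With 1 array left out they ran from -0.059 to 0.16 for Actl7b, -0.27 to 0.15 for Capza2, -0.094 to 0.075, -0.16 to 0.11 and -1.31 to 0.14 for the Capzb probe sets, -0.25 to 0.046 for the second Actb probe set, -0.16 to 0.17 for Arpc2, -0.12 to 0.092 for Ldhc, -0.073 to 0.012 for Clu and -1.09 to 0.087 for Adam7. With quantile normalization Tln1 was at 0.015, Ldhc at 0.079 and Clu at 0.089, and with equal array medians Arpc2 was at -0.0001. The cause of these turns was not tested. Dim probe sets limit what can be said: the intervals of Capza2 and of the third Capzb probe set include changes of the size seen for Capza3.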
